A study of Mus musculus with 8 samples.

Results

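The genes described here encode mitochondrial ribosomal proteins, and were chosen by name alone as every gene whose symbol reads Mrpl or Mrps followed by a number and at most 1 further letter. There were 78 of them among the 55414 genes of the expression table, 49 named Mrpl after the large ribosomal subunit and 29 named Mrps after the small one. All 78 reached 1 TPM in 2 or more of the 8 libraries, the filter that left 13526 genes for testing. TPM, a length-corrected transcript count scaled to the same total in every library, is the relative abundance of a gene's transcripts so levels of different genes can be set side by side.

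The mitochondrial ribosome sits in the mitochondrial matrix and translates the few mRNAs that mitochondrial DNA encodes, all of which specify subunits of the respiratory chain and of ATP synthase. Its ribosomal RNAs, a 12S RNA in the small subunit and a 16S RNA in the large subunit, come from mitochondrial DNA, whereas every protein is encoded in the nucleus, made in the cytosol and imported. Many of these proteins descend from bacterial ribosomal proteins and others are particular to mitochondria, and the name of a gene is an imperfect guide to its place: the products of Mrps30 and Mrps18a lie in the large subunit, the product of Mrps36 belongs to the 2-oxoglutarate dehydrogenase complex, and the product of Mrpl58 is a peptidyl-tRNA hydrolase that was built into the large subunit. Mrpl12 forms the stalk of the large subunit and is present there in several copies.

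The RNA was from B16F10, a melanoma line of the mouse, grown in 4 groups of 2 libraries. WT cells and cells with a CRISPR/Cas9 knockout of Ppif (CypD KO) were kept at 21% O2 for 24 h, and Control cells stably carrying pcDNA and cells labelled as stably overexpressing PPIF (labelled CypD OE) were kept at 1% O2 for 24 h. Ppif encodes cyclophilin D (CypD), a matrix protein that promotes opening of the mitochondrial permeability transition pore. Knockout clones had been selected with puromycin, and the labels give neither the number of clones nor whether the 2 libraries of a group came from separate cultures, so p-values measure the spread between these libraries, which may be technical. Control cells and cells labelled CypD OE had been grown in G418, from which resistant clones were taken, so differences between clones may enter their comparison. Control and WT differ in oxygen, in carrying a vector and in this selection, and the effects of these cannot be told apart.

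Ppif stood at 50.7 and 49.99 TPM in WT, 10.4 and 12.1 in CypD KO, 44.6 and 42.3 in Control and 50.3 and 49.3 in the libraries labelled CypD OE. It fell by 2.07 ± 0.07 (SE) on the log2 scale in CypD KO (adjusted p = 3.81e-06). In RNA the libraries labelled CypD OE lay only 1.15 times above Control (adjusted p = 0.0794), which is why the word labelled is kept throughout. The paper reports overexpression of CypD in the resistant clones by western blot, a measure of protein that these data do not hold. All 7 melanocyte markers examined (Mlana, Pmel, Tyr, Tyrp1, Dct, Mitf, Sox10) were present and summed to between 12433 TPM, in CypD KO, and 20984 TPM, in Control. Of the markers of other cells, Dcn, Cdh5, Cd3e, Krt5, Krt14 and Epcam were listed at 0 in every library, and fibroblast and endothelial lists summed to at most 13.7 and 1.18 TPM. The leukocyte list reached 23.4 TPM in CypD KO against at most 4.81 TPM elsewhere, nearly all of it from Cd68, with Ptprc at 0 to 0.02 TPM. The part of these marker differences in the results that follow was not tested. In RNA from whole cultures, fewer cells that use a gene and less of its RNA per cell cannot be told apart.

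All 78 genes were well above the filter in WT, where their means ran from 17.5 to 309 TPM with a median of 66.6 TPM. Mrpl30 (chromosome 1, 37929558 to 37939816 in GRCm39, the build of all coordinates given here), a large-subunit protein with a bacterial relative, was the highest, at 307 and 311 TPM. Mrpl42 (chromosome 10, 95316559 to 95346150) followed with 268 and 276 TPM, and the small-subunit gene Mrps21 (chromosome 3, 95766069 to 95778879) came next with 189 and 214 TPM. The WT libraries of these 3 genes did not overlap with each other. The lowest were Mrps16 (chromosome 14, 20439372 to 20443713) at 17.9 and 17.0 TPM, Mrpl1 (chromosome 5, 96357146 to 96414586) at 22.5 and 21.6 TPM, and Mrps30 (chromosome 13, 118513808 to 118523838) at 25.1 and 24.4 TPM. The 78 transcripts together made up 6451 and 6366 TPM in WT, 5934 and 6028 in CypD KO, 5880 and 5938 in Control and 5925 and 5911 in the libraries labelled CypD OE. In TPM as deposited, every WT library thus exceeded every other library in the summed level. Control overlapped there with both CypD KO and the libraries labelled CypD OE. Against WT the mean sum fell by 6.67% in CypD KO, and it fell by 7.79% in Control. The libraries labelled CypD OE were 0.145% above Control. These overlaps and percentages depend on scaling and were not worked out under another one. Leaving mitochondrial DNA genes out of the total raises the libraries labelled CypD OE relative to Control. Median-of-ratios rescaling lowers CypD KO relative to every other group.

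**Figure D1:**
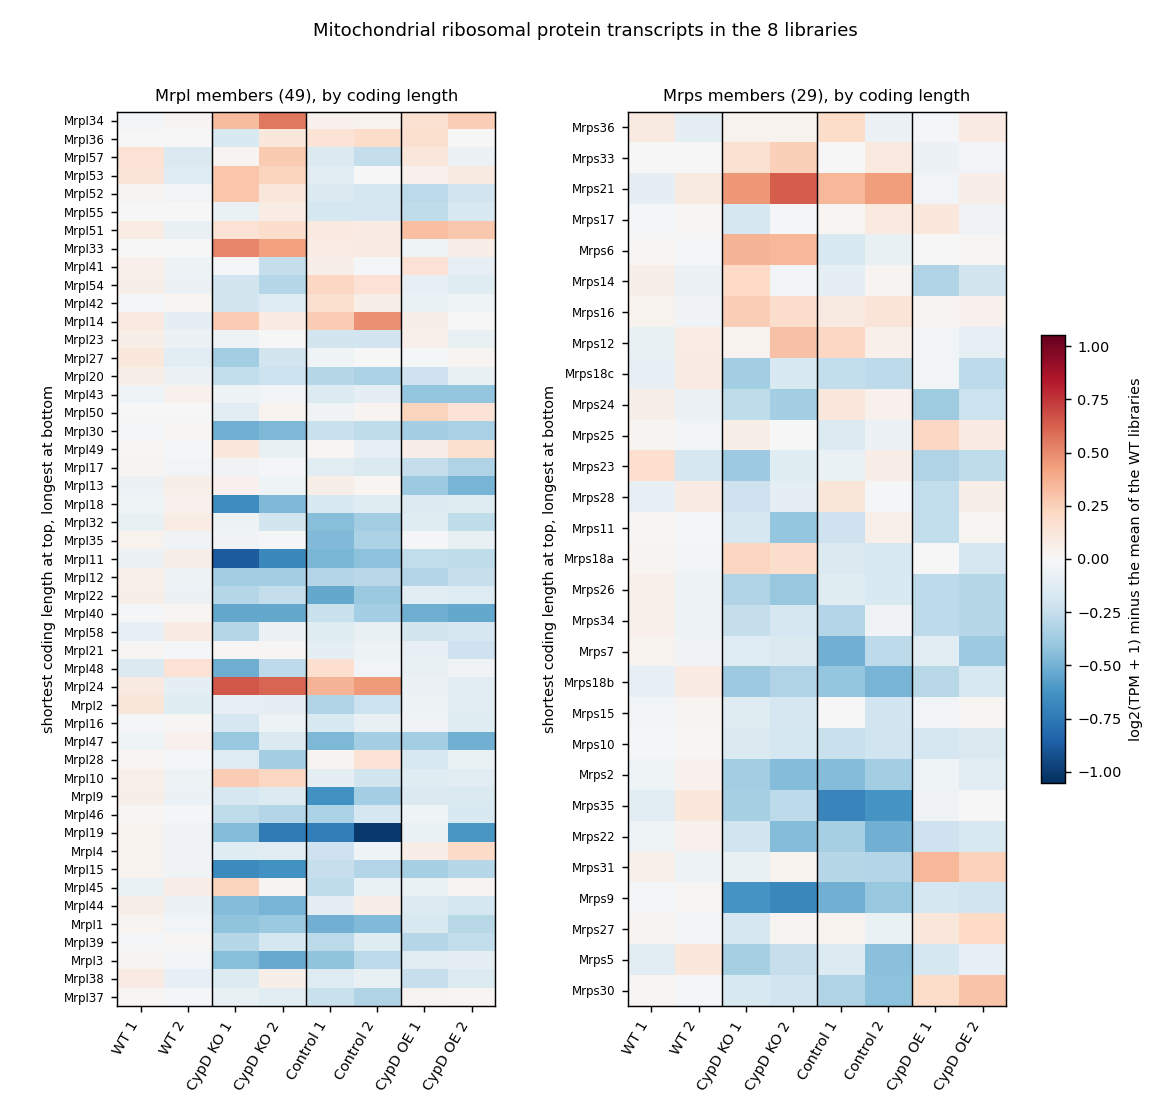
Each row is 1 gene and each column 1 library; colour gives log2(TPM + 1) minus the mean of the WT libraries, with Mrpl genes on the left, Mrps genes on the right, and coding length growing from top to bottom (OE columns are the libraries labelled CypD OE). Mrpl24 and Mrps21 are red in both CypD KO and both Control libraries, and most long genes are blue there.

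At 21% O2 the comparison was between CypD KO and WT. Loss of Ppif, selection with puromycin and differences between clones cannot be told apart in it. In CypD KO, 27 of the 78 mitochondrial ribosomal protein transcripts fell and 12 rose relative to WT, and 39 did not pass the test (limma on log2(TPM + 1), Benjamini-Hochberg adjusted p under 0.05 over all genes tested). The genes that fell were 34.6% of the 78, against a background of 18.4% of all genes tested, and the genes that rose were 15.4%, against a background of 30.1%. Their median log2 fold change was −0.14, whereas that of all genes tested was 0.09. Among Mrpl genes 19 fell and 7 rose, and among Mrps genes 8 fell and 5 rose. The split depended on scaling: after median-of-ratios rescaling 43 fell and 5 rose (all genes, 25.7% and 23.7%), and after correction for GC content and transcript length 48 fell and 5 rose (all genes, 30.0% and 20.9%), a correction that moved the median of all genes from 0.09 to −0.07. Relative to the median of all genes, the median of the 78 lay at −0.23 as deposited, at −0.24 after median-of-ratios rescaling and at −0.22 after the correction. With each library left out in turn, the median of the 78 ran from −0.16 to −0.11.

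The 5 largest falls without overlap were in Mrpl11, Mrpl15, Mrps9, Mrpl19 and Mrpl18, followed by Mrpl40, a protein particular to mitochondria (−0.54 ± 0.05, adjusted p = 0.000163). Mrpl11 (chromosome 19, 5012163 to 5017100), which forms the base of the large-subunit stalk, had 50.5 and 55.2 TPM in WT and 28.3 and 32.7 TPM in CypD KO. Both knockout libraries were below both WT libraries, and the level fell by 0.78 ± 0.08 on the log2 scale (adjusted p = 0.000277). Mrpl15 (chromosome 1, 4843429 to 4855972), of the large subunit, went from 140 and 133 TPM to 85.5 and 87.1 TPM, a log2 fold change of −0.65 ± 0.04 (adjusted p = 4.19e-05). Mrps9 (chromosome 1, 42890348 to 42945274), of the small subunit, went from 84.1 and 85.8 TPM to 55.02 and 52.7 TPM, a change of the same size (−0.65 ± 0.05, adjusted p = 8.81e-05). In both genes the gap between the groups was many times that between replicates. Mrpl18 (chromosome 17, 13130034 to 13135718) fell from 141 and 150 TPM to 92.4 and 104 TPM (−0.56 ± 0.06, adjusted p = 0.000405). Mrpl19 (chromosome 6, 81934832 to 81942943) went from 100 and 94.6 TPM to 70.8 and 57.9 TPM (−0.60 ± 0.19, adjusted p = 0.0361), with a wide gap between its knockout libraries, and its adjusted p rose to between 0.0545 and 0.178 when any of the 4 libraries was left out. Mrpl30, the most abundant member in WT, fell to 218 and 223 TPM (−0.49 ± 0.03, adjusted p = 2.74e-05), and Mrps21 took its place as the highest of the 78 in CypD KO.

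The 5 largest rises were in Mrpl24, Mrps21, Mrpl33, Mrpl34 and Mrps6. Mrpl24 (chromosome 3, 87826798 to 87832192), of the large subunit, had 76.8 and 67.5 TPM in WT and 114 and 111 TPM in CypD KO, a rise of 0.63 ± 0.07 (adjusted p = 0.000312). Mrps21 rose to 277 and 314 TPM, a change of 0.55 ± 0.08 (adjusted p = 0.00168). Neither gene's groups overlapped. Mrpl33 (chromosome 5, 31754279 to 31837542) went from 138 and 140 TPM to 199 and 188 TPM, by 0.47 ± 0.05 (adjusted p = 0.000294). Mrpl34 (chromosome 8, 71917555 to 71918396), which has the shortest coding sequence of the 78, went from 57.5 and 59.6 TPM to 74.1 and 86.2 TPM, by 0.44 ± 0.07 (adjusted p = 0.00286). Mrps6 (chromosome 16, 91854965 to 91909592) went from 78.9 and 77.3 TPM to 100.5 and 99.7 TPM, by 0.35 ± 0.04 (adjusted p = 0.000497). All 5 stood apart from WT by more than the spread between replicates, and the 5 calls held under every alternative run, including each library left out in turn.

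The exceptions in role or place did not move together. Mrpl12 (chromosome 11, 120375430 to 120381396) fell from 176 and 164 TPM to 132 and 133 TPM (−0.36 ± 0.04, adjusted p = 0.000649). Mrps18a (chromosome 17, 46421909 to 46446812), a large-subunit protein despite its name, rose from 85.4 and 82.0 TPM to 98.2 and 95.03 TPM (0.20 ± 0.06, adjusted p = 0.0315), a call that was lost under 8 of 14 alternatives. Mrps30 was at 21.9 and 21.2 TPM in CypD KO (−0.19 ± 0.07, adjusted p = 0.0607). Mrps36 (chromosome 13, 100872116 to 100881584) had 94.7 and 82.7 TPM in WT and 90.8 and 91.0 TPM in CypD KO, so the groups overlapped (0.04 ± 0.10, adjusted p = 0.771), and Mrpl58 (chromosome 11, 115294556 to 115303502) likewise overlapped, at 96.4 and 108 against 82.8 and 97.9 TPM (−0.18 ± 0.09, adjusted p = 0.127).

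**Figure D2:**
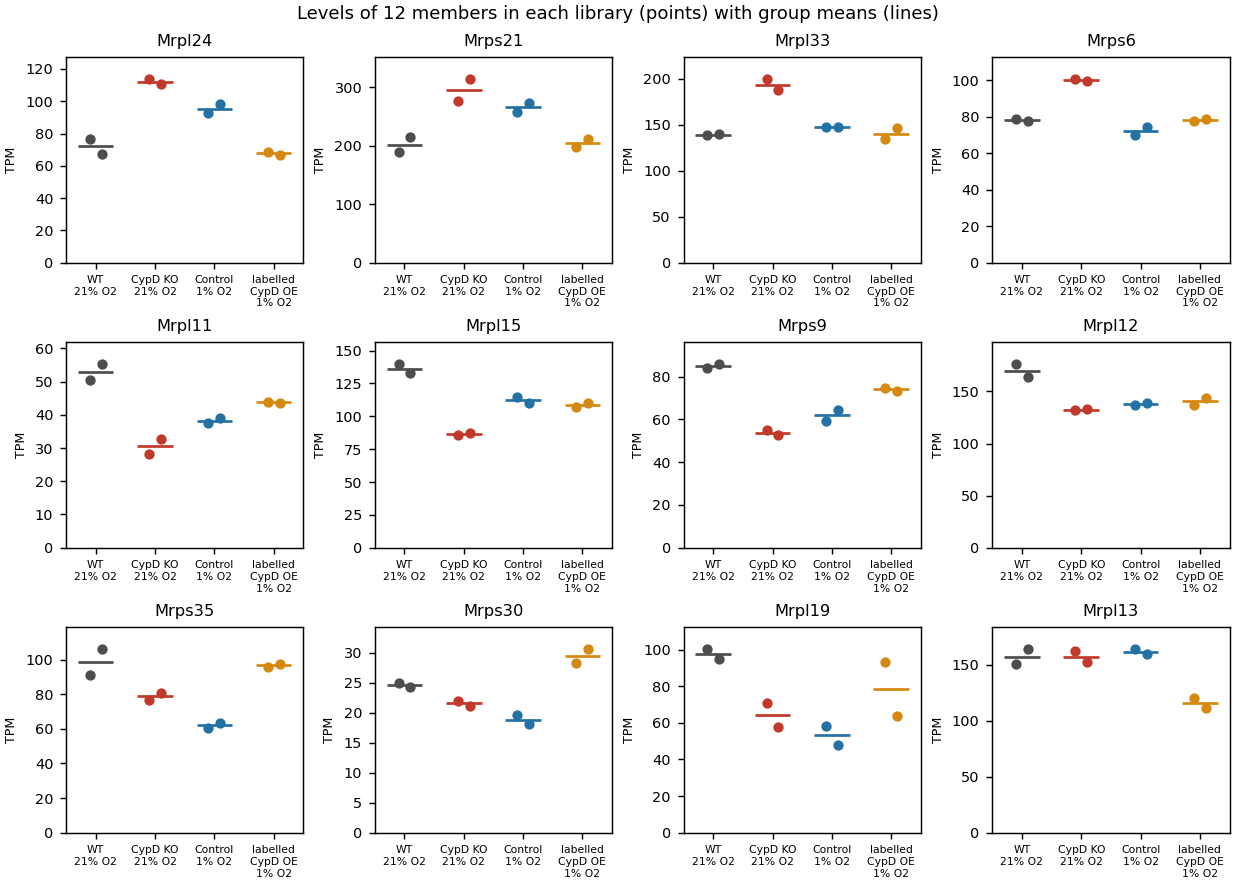
TPM of 12 genes in each of the 8 libraries (points, vertical axis from 0) with the mean of each group (line). Mrpl24 and Mrps21 are highest in CypD KO and next highest in Control, Mrpl11 and Mrps9 are lowest in CypD KO, and Mrpl13 is lowest in the libraries labelled CypD OE.

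At 1% O2 the comparison was between the libraries labelled CypD OE and Control. Here 14 of the 78 transcripts were higher in the libraries labelled CypD OE, 11 were lower and 53 did not pass the test. The higher genes were 17.9% of the 78, against a background of 19.0% of all genes tested, and the lower genes were 14.1%, against a background of 18.3%, so both shares were near or under those of genes at large. The median was 0.03, beside 0.00 for all genes tested. Of Mrpl genes 8 were higher and 9 lower, and of Mrps genes 6 were higher and 2 lower. The counts moved with scaling, although more members were higher than lower under each scaling. Transcripts of mitochondrial DNA took 12.96% and 13.68% of all TPM in the labelled CypD OE libraries and 10.02% and 9.502% in Control. With those genes left out of the total, 25 members were higher and 7 lower (all genes, 23.8% and 15.7%). With the total taken over protein-coding nuclear genes, 28 were higher and 6 lower (all genes, 25.9% and 14.5%), and with the correction for GC content and transcript length 23 were higher and 8 lower (all genes, 20.3% and 18.1%). Relative to the median of all genes, the median of the 78 lay at 0.02 as deposited. It lay at 0.03 with each of these totals and at 0.08 after the correction. With each library left out in turn, the median of the 78 ran from 0.02 to 0.05.

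The clearest rises in the libraries labelled CypD OE were in 3 genes with long coding sequences whose products are particular to mitochondria. Mrps35 (chromosome 6, 146944205 to 146975489), of the small subunit, had 60.2 and 63.6 TPM in Control and 95.7 and 97.7 TPM in the labelled CypD OE libraries, 0.64 ± 0.07 higher on the log2 scale (adjusted p = 0.000843). Mrps30 had 19.7 and 18.1 TPM against 28.4 and 30.6 TPM, 0.62 ± 0.07 higher (adjusted p = 0.000704). Mrps31 (chromosome 8, 22901363 to 22921195), of the small subunit, had 23.1 and 23.0 TPM against 36.7 and 34.0 TPM, 0.59 ± 0.07 higher (adjusted p = 0.000887). The groups of these 3 genes were far apart, and the calls held under every alternative. Mrpl35 (chromosome 6, 71785165 to 71803953) rose from 28.9 and 31.8 TPM to 39.9 and 38.2 TPM, by 0.35 ± 0.06 (adjusted p = 0.00456). Mrpl9 (chromosome 3, 94350594 to 94358437) went from 47.9 and 58.5 TPM to 67.35 TPM in both libraries, by 0.34 ± 0.09 (adjusted p = 0.0251). This call was lost under 5 of 14 alternatives, among them leaving out Control replicate 1 or either library labelled CypD OE (adjusted p from 0.0692 to 0.0942). Mrpl19 was 1.47 times higher on average, at 93.0 and 63.6 TPM, but its libraries differed from each other by nearly as much and the test was not passed (0.53 ± 0.19, adjusted p = 0.0645).

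Among the falls, Mrpl24 had 92.6 and 98.2 TPM in Control and 68.8 and 66.7 TPM in the labelled CypD OE libraries (−0.49 ± 0.07, adjusted p = 0.00159). Mrpl13 (chromosome 15, 55385722 to 55421144), of the large subunit, went from 164 and 159 TPM to 120.5 and 112 TPM (−0.47 ± 0.06, adjusted p = 0.00116). The groups of both genes were well separated. Mrps24 (chromosome 11, 5642243 to 5665680), of the small subunit, fell from 67.1 and 63.9 TPM to 47.5 and 52.8 TPM (−0.38 ± 0.07, adjusted p = 0.00607). Mrps21 fell from 257 and 274 TPM to 197 and 211 TPM (−0.38 ± 0.08, adjusted p = 0.0115), which was lost without Control replicate 2 and without replicate 1 labelled CypD OE (adjusted p = 0.064 and 0.0688). Mrpl14 (chromosome 17, 45996373 to 46010480) fell from 66.9 and 78.04 TPM to 58.0 and 55.7 TPM (−0.34 ± 0.10, adjusted p = 0.0392), and this call was lost under 10 of 14 alternatives. Mrpl12, at 137 and 139 against 137 and 144 TPM, Mrps36, Mrps18a and Mrpl58 did not pass the test here.

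Control at 1% O2 was also set against WT at 21% O2. In Control, 25 of the 78 transcripts were lower than in WT, 3 were higher and 50 did not pass the test. The lower genes were 32.1%, against a background of 12.1% of all genes tested, and the higher genes were 3.8%, against a background that was also 12.1%. The median was −0.14, beside 0.01 for all genes. Of Mrpl genes 16 were lower and 2 higher, and of Mrps genes 9 were lower and 1 higher. Under the 3 rescalings and the correction the counts were 30 lower and 3 higher, while 13.9% to 15.0% of all genes were lower and 10.6% to 11.1% higher. WT and Control each served in 2 of the 3 comparisons, so the counts are not independent of each other.

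The 3 genes that rose were Mrpl24 (0.40 ± 0.07, adjusted p = 0.00628), Mrps21 (0.40 ± 0.08, adjusted p = 0.0152) and Mrpl14 (0.37 ± 0.10, adjusted p = 0.0417). Only Mrpl24 kept its call under every alternative. The largest fall was that of Mrpl19, to 58.4 and 47.8 TPM, 0.545 times the WT mean (−0.87 ± 0.19, adjusted p = 0.0175), although its adjusted p was 0.0665 to 0.0903 without Control replicate 2 or without either WT library. Mrps35 fell to 60.2 and 63.6 TPM from 91.1 and 106 TPM in WT (−0.66 ± 0.07, adjusted p = 0.00146). Mrpl1, whose product builds the L1 stalk where deacylated tRNA leaves the ribosome, fell to 15.2 and 15.7 TPM (−0.49 ± 0.07, adjusted p = 0.00405). Mrpl22 (chromosome 11, 58062475 to 58070412), whose bacterial relative lines the exit tunnel, fell from 93.0 and 85.1 TPM to 61.0 and 67.5 TPM (−0.47 ± 0.06, adjusted p = 0.00316). Mrpl9 was lower too (−0.50 ± 0.09, adjusted p = 0.00964), a call lost under 2 of 14 alternatives, among them leaving out WT replicate 1 (adjusted p = 0.0566). In each of the falling genes named here both Control libraries lay below both WT libraries.

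**Figure D3:**
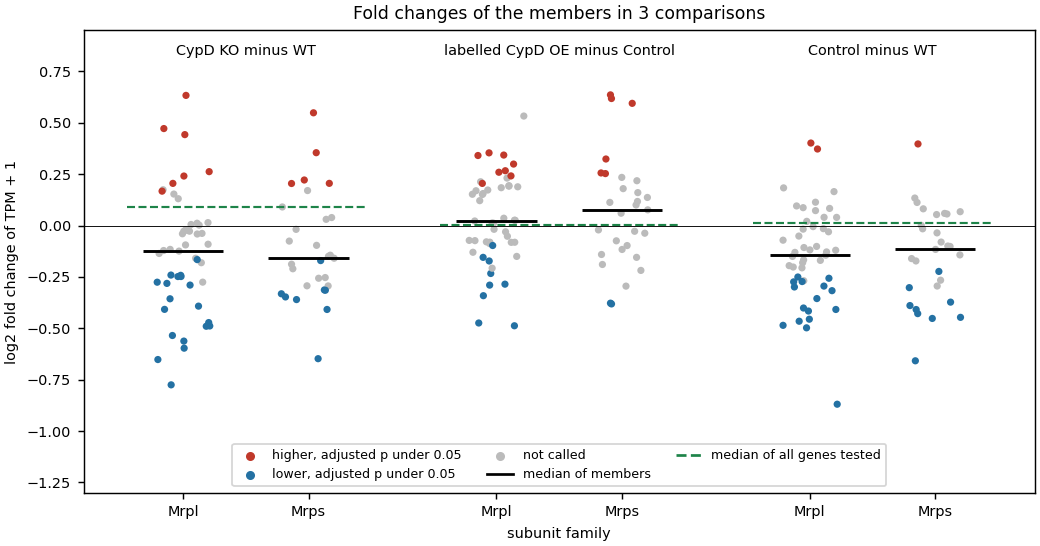
Log2 fold change of TPM + 1 for each of the 49 Mrpl and 29 Mrps genes in the 3 comparisons; points are genes, coloured where called, black lines are the medians of the members and dashed lines those of all 13526 genes tested. In CypD KO minus WT and in Control minus WT the medians of the members lie below the dashed line, and in labelled CypD OE minus Control they lie close to it.

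In several genes CypD KO and Control lay on one side, and WT and the libraries labelled CypD OE on the other. As a plain count over levels, chosen after the values had been seen, 13 of the 78 genes had all 4 libraries of WT and of the group labelled CypD OE above all 4 libraries of CypD KO and Control, which is 16.7%, against a background of 8.44% of all genes tested. These were Mrpl1, Mrpl3, Mrpl4, Mrpl11, Mrpl20, Mrpl22, Mrpl37, Mrpl46, Mrps2, Mrps9, Mrps18b, Mrps30 and Mrps35. The opposite order held for 5 genes, Mrpl24, Mrpl33, Mrps16, Mrps21 and Mrps33, which is 6.41%, against a background of 11.6%. Such an order asks neither for a called change nor for a level near that of WT. Mrpl11, at 43.95 and 43.67 TPM in the labelled CypD OE libraries, did not pass the test against Control (adjusted p = 0.0994). Mrpl33, Mrps16 and Mrps33 did not pass it in Control against WT. Mrps9 shows the first order, at 84.1 and 85.8 TPM in WT and 74.8 and 73.3 TPM in the labelled CypD OE libraries, against 55.02 and 52.7 TPM in CypD KO and 59.4 and 64.3 TPM in Control. Mrps2 (chromosome 2, 28358049 to 28364580), of the small subunit, had 66.9 and 71.6 TPM in WT and 66.9 and 63.5 TPM in the labelled CypD OE libraries, against 53.5 and 50.3 TPM in CypD KO and 50.3 and 53.5 TPM in Control. Mrpl24 shows the opposite order, since its WT libraries and those labelled CypD OE lay at or under 76.8 TPM and all others at or above 92.6 TPM. Other genes broke the pattern: Mrpl15 and Mrpl40 (chromosome 16, 18690767 to 18696113) were below WT in all 3 other groups, and Mrpl40 was lower in the libraries labelled CypD OE than in Control as well (−0.23 ± 0.05, adjusted p = 0.00922).

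The balance between the subunits shifted little, and in directions that depended on how it was summarised. The mean log2(TPM + 1) of Mrps genes minus that of Mrpl genes was −0.12 and −0.08 in WT, −0.08 and −0.08 in CypD KO, −0.09 and −0.11 in Control and −0.08 and −0.04 in the libraries labelled CypD OE. The groups overlapped in CypD KO against WT and in Control against WT, with differences of 0.02 and 0.00. With medians in place of means these became −0.03 and −0.07, and with the log2 ratio of summed TPM the difference of CypD KO from WT was 0.08, in each case without overlap of the groups. The libraries labelled CypD OE were both above Control, by 0.04 on average, by 0.08 with overlapping groups when medians were used, and by 0.02 without overlap as the ratio of summed TPM. Placing Mrps30 and Mrps18a in the large subunit and leaving out Mrps36, as the mammalian structure does, brought that difference to 0.01 and made these groups overlap. With 2 libraries on each side an exact permutation test has a smallest two-sided p of 0.333, so none was made. Among the proteins by descent, 12 of 29 large-subunit genes with bacterial relatives fell in CypD KO and 4 rose, and 7 of 21 mitochondria-specific ones fell and 4 rose. Of 15 small-subunit genes with bacterial relatives 4 fell and 3 rose, and of 10 mitochondria-specific ones 4 fell and 1 rose, so falls occurred in all 4 classes. In the order given, 41.4%, 33.3%, 26.7% and 40% of a class fell, against a background of 18.4% of all genes tested. The shares that rose were 13.8%, 19.0%, 20% and 10%, against a background of 30.1%. The difference between the classes was not tested.

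Coding length, which the choice of genes did not use, went along with the direction of change. The 78 coding sequences ran from 276 to 1326 bases, with a median of 582. In CypD KO against WT, the genes that rose had a median of 380 bases and those that fell a median of 762 bases. Of the 24 genes under 450 bases 9 rose and 4 fell, of the 40 from 450 to under 900 bases 3 rose and 16 fell, and of the 14 with 900 or more 0 rose and 7 fell. All protein-coding genes tested showed no such gradient, with 37.4%, 32.5% and 33.0% higher and 18.6%, 22.7% and 20.2% lower in the same classes. Members under 450 bases were near the shares of all such genes, with 37.5% higher and 16.7% lower. The longer members departed from them, with 7.5% higher and 40% lower in the middle class and 0% and 50% in the longest. Across the 78 genes, which share libraries and are not independent replicates, Pearson's correlation of log2 fold change with log2 coding length was −0.48 (Spearman −0.52), beside −0.02 across 11296 protein-coding genes tested.

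In the libraries labelled CypD OE against Control the sign was opposite, with a correlation of 0.42 across the 78 (all protein-coding genes, 0.06). There 7 of the 14 genes with 900 or more bases rose and 0 fell, while 1 of the 24 under 450 bases rose and 4 fell. All protein-coding genes tested had a gradient of the same sign, with 14.8%, 19.1% and 22.5% higher and 27.2%, 23.7% and 18.8% lower from the shortest to the longest class, so the 16.7% of short members that fell lay below the share of all short genes. The slope was mostly among genes named Mrps, with a correlation of 0.69 across 29 Mrps genes and 0.18 across 49 Mrpl genes. This split is by name and was not repeated by structural subunit. Mrps30, which has the longest coding sequence (1326 bases) and was 0.62 higher, lies in the large subunit. In Control against WT the correlation was −0.54 (all protein-coding genes, 0.01), and 8 of the 14 longest genes fell while 0 rose (all protein-coding genes of that length, 13.7% lower and 12.7% higher). These comparisons share WT or Control libraries. The correction for GC content and transcript length left the correlations at −0.49, 0.42 and −0.53. It follows the trend of all genes tested. Across protein-coding genes tested, log2 fold change correlated with log2 transcript length at 0.01, 0.08 and 0.01. The length part of the correction could thus take little from a slope within the 78 genes. With whole transcript length in place of coding length, the correlations across the 78 were −0.33, 0.24 and −0.32. The same sign was seen in CypD KO against WT across 78 cytosolic ribosomal protein genes (−0.71) and across 78 nuclear genes for OXPHOS subunits (−0.43). Both families also had the sign of the members in Control against WT (−0.44 and −0.33). In the libraries labelled CypD OE against Control they did so too (0.21 and 0.14).

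**Figure D4:**
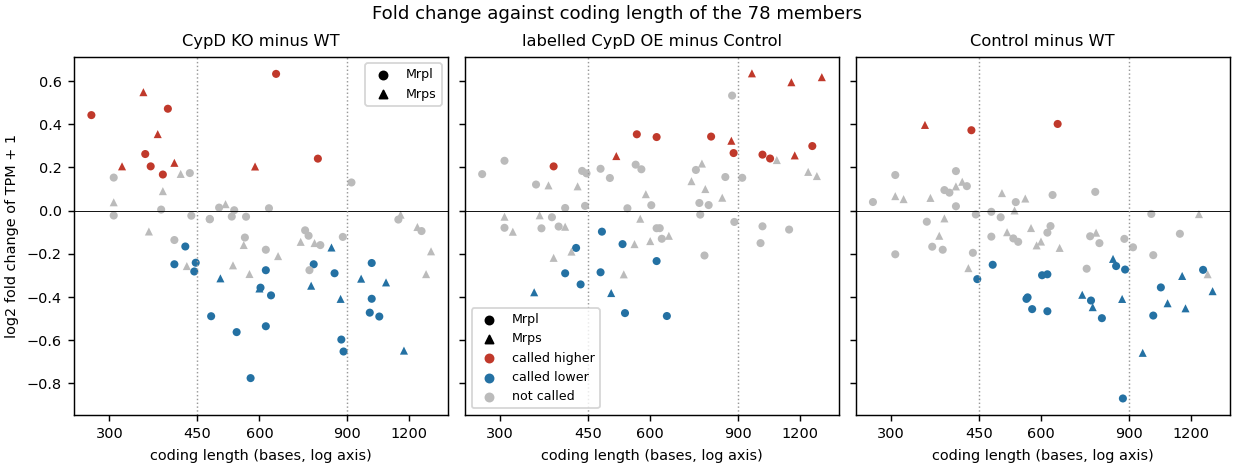
Log2 fold change of TPM + 1 against coding length (log axis, bases) for the 78 genes in 3 comparisons; circles are Mrpl and triangles Mrps genes, red and blue mark called genes, and dotted lines mark 450 and 900 bases. In CypD KO and in Control most red points lie among the short genes and blue points dominate from 450 bases on, and in the middle panel 0 of the 14 longest genes are blue.

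The start regions of the genes were read for motifs of factors tied to mitochondrial biogenesis or to oxygen. In 250 bases before the annotated start, on both strands, the ETS motif CCGGAAG of the GABPA type was found in 14 of 78 genes (17.9%), against 6.89% of 21770 protein-coding genes and 10.96% of those tested. The NRF1 core GCATGCGC was in 4 genes (5.13%, all protein-coding genes 2.68%, those tested 3.68%) and the YY1 motif AAGATGGCG in 1 (1.28%, all protein-coding genes 0.547%, those tested 1.01%). The hypoxia response core ACGTG was in 15 genes (19.2%, all protein-coding genes 17.0%, those tested 21.7%), in 0 of the 12 that rose in CypD KO and in 2 of the 27 that fell. The E-box CACGTG, which contains ACGTG, was in 4 (5.13%, all protein-coding genes 6.26%, those tested 8.10%). Of the same 12 and 27 genes, the ETS motif was in 3 that rose and 4 that fell, and the NRF1 core in 1 and 2. The YY1 motif and the E-box were in 0 of both. In 23 of the 78 genes the last 100 bases before the start were free of any annotated exon. The windows of 5 of these genes and that of Mrpl52, which has 80 exon-free bases, are shown on the strand of the gene, with motif matches in capitals. Mrpl33 and Mrps6 stand for genes that rose in CypD KO, Mrpl19 and Mrps9 for genes that fell, Mrps28 for the NRF1 core and Mrpl52 for the ETS motif on the opposite strand. The window of Mrpl33 lies inside the annotated span of that gene, which begins further upstream with other transcripts.
Mrpl33 chr5:31771183-31771282 plus: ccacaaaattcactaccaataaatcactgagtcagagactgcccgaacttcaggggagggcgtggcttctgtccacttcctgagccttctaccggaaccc
Mrps6 chr16:91854865-91854964 plus: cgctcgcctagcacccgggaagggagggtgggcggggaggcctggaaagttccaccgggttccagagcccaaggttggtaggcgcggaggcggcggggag
Mrpl19 chr6:81942944-81943043 minus: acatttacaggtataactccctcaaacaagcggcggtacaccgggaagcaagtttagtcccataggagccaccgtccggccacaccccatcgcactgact
Mrps9 chr1:42890248-42890347 plus: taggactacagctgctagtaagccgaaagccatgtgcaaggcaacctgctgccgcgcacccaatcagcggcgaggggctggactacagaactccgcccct
Mrps28 chr3:8988979-8989078 minus: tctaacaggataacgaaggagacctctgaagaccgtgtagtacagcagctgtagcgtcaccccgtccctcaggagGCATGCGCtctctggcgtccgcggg
Mrpl52 chr14:54664280-54664359 plus: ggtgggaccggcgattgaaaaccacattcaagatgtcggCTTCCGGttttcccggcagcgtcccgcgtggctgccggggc

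None of the 5 motifs occurs in the 4 windows of Mrpl33, Mrps6, Mrpl19 and Mrps9. In Mrps28 the NRF1 core begins 25 bases before the start, and this gene did not pass the test in any comparison, with 24.9 and 28.2 TPM in WT and 22.7 and 24.6 TPM in CypD KO. In Mrpl52 the ETS match begins 41 bases before the start, and the gene rose in CypD KO, from 86.8 and 83.6 TPM to 105 and 92.5 TPM (0.21 ± 0.06, adjusted p = 0.0343). A match says only that the letters are there, and the absence of one says nothing of the factor.

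Some of the genes started close to a gene on the other strand. Within 500 bases, 13 of the 78 (16.7%) had a protein-coding neighbour that ran the other way, against 4.41% of 21770 protein-coding genes. That background includes genes under the filter, and the share among genes tested was not counted. The members Mrps11 and Mrpl46 on chromosome 7 start 30 bases apart, and Mrpl43 starts 56 bases from Twnk, which encodes the helicase of mitochondrial DNA. Mrpl46 was at 36.1 and 35.4 TPM in WT and 29.5 and 28.6 TPM in CypD KO, a fall of 0.29 ± 0.07 on the log2 scale (adjusted p = 0.013). Mrps11 changed by −0.29 ± 0.13 (55.9 and 55.1 against 48.9 and 41.5 TPM), which did not pass the test (adjusted p = 0.103). The annotated spans of this pair overlap, and whether reads were assigned by strand is not given in the sources used here, so their values are uncertain. The same holds for Mrps18c, which overlaps Abraxas1, and Mrps25, which overlaps Nr2c2. Mrps36 has several pseudogenes with at least 90% identity, of which 1 was listed at up to 28.7 TPM, so its values are uncertain too; the pseudogenes of other members stayed at or under 4.66 TPM.

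Of the 5 mitochondrial ribosomal proteins that carry other names, Ptcd3, a small-subunit protein that binds RNA, showed the same order as Mrps9. It had 157 and 162 TPM in WT, 138 and 134 TPM in CypD KO (−0.22 ± 0.04, adjusted p = 0.00236), 120 and 115 TPM in Control (−0.44 ± 0.04 against WT, adjusted p = 0.000452), and 169 and 166 TPM in the labelled CypD OE libraries (0.51 ± 0.04 against Control, adjusted p = 0.000107). Chchd1 was lower in the libraries labelled CypD OE than in Control (−0.24 ± 0.07, adjusted p = 0.0313), and Dap3, Aurkaip1 and Gadd45gip1 did not pass the test in any comparison. The 12S RNA gene mt-Rnr1 did not pass the test in any comparison either. The 16S RNA gene mt-Rnr2 was at 1094 and 1166 TPM in WT, 964 and 990 in CypD KO, 660 and 481 in Control and 1421 and 1427 in the libraries labelled CypD OE. It was lower in Control than in WT (−1.002 ± 0.13, adjusted p = 0.00246) and higher in the libraries labelled CypD OE than in Control (1.34 ± 0.13, adjusted p = 0.00037). Both are what was left after removal of ribosomal RNA from the libraries, so they do not measure the amount of mitochondrial ribosome.

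Of 16 tested factors of mitochondrial translation, 6 fell (37.5%) and 0 rose in CypD KO, where 18.4% of all genes tested fell and 30.1% rose. In Control against WT 7 fell (43.8%) and 0 rose, where 12.1% of all genes went each way, and in the libraries labelled CypD OE against Control 4 rose (25%, all genes 19.0%) and 1 fell (6.25%, all genes 18.3%). Oxa1l, which inserts newly made proteins into the inner membrane, was the largest fall in both comparisons with WT, from 29.4 and 33.4 TPM in WT to 19.9 and 19.7 TPM in CypD KO (−0.64 ± 0.07, adjusted p = 0.000502) and 21.5 and 22.8 TPM in Control (−0.48 ± 0.07, adjusted p = 0.00468), and it rose to 29.3 and 29.7 TPM in the labelled CypD OE libraries (0.40 ± 0.07 against Control, adjusted p = 0.00575). Guf1, a translational GTPase related to bacterial LepA, rose most there, from 37.6 and 39.0 TPM in Control to 66.2 and 59.6 TPM (0.70 ± 0.06, adjusted p = 0.000251). Of 28 genes for assembly of the ribosome and modification of its RNA, 7 fell (25%, all genes 18.4%) and 4 rose (14.3%, all genes 30.1%) in CypD KO. Noa1, an assembly GTPase, fell from 49.02 and 49.7 TPM to 33.6 and 34.1 TPM (−0.53 ± 0.05, adjusted p = 0.000129), and Mpv17l2, an inner-membrane assembly protein, rose from 18.3 and 17.9 TPM to 30.2 and 34.1 TPM (0.79 ± 0.10, adjusted p = 0.000779). In the libraries labelled CypD OE 7 of the 28 rose (25%, all genes 19.0%) and 2 fell (7.14%, all genes 18.3%). Among those that rose was Malsu1, which keeps the subunits apart during assembly, from 15.3 and 15.5 TPM to 24.7 and 23.8 TPM (0.62 ± 0.09, adjusted p = 0.00262). In Control against WT 6 fell (21.4%) and 1 rose (3.57%), against 12.1% of all genes each way, the latter Ngrn, which binds the 16S RNA (0.53 ± 0.09, adjusted p = 0.00854).

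The 27 falls and 12 rises of the mitochondrial ribosomal proteins in CypD KO can be set beside the counts of related families, without a test of the difference. Of 78 tested cytosolic ribosomal protein genes, 67 fell and 1 rose in CypD KO, 20 fell and 1 rose in Control against WT, and 13 fell and 10 rose in the libraries labelled CypD OE against Control. Of 78 tested nuclear genes for OXPHOS subunits, 37 rose and 11 fell in CypD KO, 26 rose and 7 fell in Control against WT, and 8 rose and 43 fell in the libraries labelled CypD OE against Control. Of all genes tested, 30.1% rose and 18.4% fell in CypD KO, 12.1% went each way in Control against WT, and 19.0% rose and 18.3% fell in the libraries labelled CypD OE against Control.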

How the data were processed

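RNA-seq was done on 8 libraries of B16F10 cells, 2 each of WT, CypD KO, Control and labelled CypD OE. Total RNA was depleted of ribosomal RNA and read in paired ends of 150 bases. The authors trimmed the reads (Cutadapt 3.4), aligned them to GRCm39 (STAR 2.7.8a), estimated expression (RSEM 1.3.1) and deposited TPM with 2 decimals. The authors ran DESeq2 1.26.0 on counts, which were not used here. TPM holds no read total, so depth is unknown from the table: 17942 to 19692 genes were above 0 per library. TPM is relative, so a rise of abundant transcripts lowers all others.

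Genes with 1 TPM or more in 2 or more libraries were tested as log2(TPM + 1) with limma 3.58.1 (R 4.3.3; 4 group means, eBayes with trend, two-sided, Benjamini-Hochberg over 13526 genes, threshold 0.05), after the fit was tested on simulated data. Coordinates, coding lengths and promoters came from GRCm39 with GENCODE annotation, in which all 78 members were found. Members, lists and alternatives were chosen with earlier results of these data known. Named were the 5 largest called rises and falls without overlap per comparison, the 3 highest and 3 lowest in WT, and Mrpl12, Mrps30, Mrps18a, Mrps36 and Mrpl58. From the lists of translation and assembly factors, the named genes are among the 3 largest rises and 3 largest falls per comparison. Mrpl3, Mrpl40, Mrps2, Mrps11, Mrps28, Mrpl46 and Mrpl52 and the genes listed by their order over the 4 groups were named after their values were seen. Alternatives were another pseudocount (0.1), no filter, a filter of 5 TPM, 3 rescalings, a loess correction for GC content and transcript length (span 0.5), fits of 4 libraries, a replicate block, no trend, and each library left out.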

Additional observations from a re-analysis of the deposited data

How the results depend on the processing

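The counts of called members moved with scaling. In CypD KO against WT, median-of-ratios rescaling gave 5 higher and 43 lower (median −0.25), and the correction for GC content and length gave 5 and 48 (−0.29). In the libraries labelled CypD OE against Control, scaling without mitochondrial DNA genes gave 25 higher and 7 lower (0.083). Scaling to protein-coding nuclear genes gave 28 and 6 (0.11), and the correction 23 higher (0.10). There eBayes without a trend gave 12 higher and 7 lower (all genes, 17.9% and 17.3%). In Control against WT the correction gave a median of −0.17. Which of these scalings is nearest to the amounts of RNA was not tested.

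Leaving out each library gave 6 to 10 higher and 18 to 23 lower members in CypD KO (median −0.16 to −0.11), 9 to 13 higher and 5 to 8 lower in the libraries labelled CypD OE (0.02 to 0.05), and 1 to 3 higher and 17 to 21 lower in Control against WT (−0.18 to −0.11). The small minus large subunit level, −0.09 over all libraries, became 0.14 with medians over members, −0.042 with the structural assignment and −0.87 as a ratio of summed TPM.

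Of 60 values for named members, 19 lost their call under 1 or more of the 14 alternatives. The 60 include values that did not pass the main test and had no call to lose, so the share of calls lost was higher than 19 of 60. Those were Mrps36 and Mrpl58 in every comparison and Mrps30 in CypD KO. Mrpl12 in labelled CypD OE against Control was another, as was Mrps18a there and in Control against WT. Mrps30 and Mrpl58 in CypD KO gained a call under some alternatives. Sign changes occurred only in values that did not pass the test. Mrps36 in CypD KO became −0.074 with median-of-ratios rescaling and −0.052 with the correction, and ran from −0.057 to 0.13 with libraries left out. In labelled CypD OE against Control it became 0.029, 0.054 and 0.063 under the scaling without mitochondrial DNA genes, the nuclear scaling and the correction, and ran from −0.16 to 0.10 with libraries left out; in Control against WT it ran from −0.062 to 0.20. In labelled CypD OE against Control, Mrpl58 became 0.00069 under the nuclear scaling, Mrpl12 ran from −0.0062 to 0.057 and Mrps18a from −0.013 to 0.17 with libraries left out.

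With the replicate number as a replicate block, 11 members were higher and 25 lower in CypD KO (all genes, 28.8% and 17.7%). The counts were 15 and 9 in the libraries labelled CypD OE (all genes, 17.7% and 17.3%). In Control against WT they were 3 and 24 (all genes, 10.7% and 10.6%). Libraries of the same number deviated together with correlations of 0.11, 0.00 and −0.02 in these comparisons, so the numbers were not taken as pairs.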
